A study of Mus musculus with 3 samples.

Results

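Cycling stromal cells of day 5 ectopic masses were taken as the cells whose transcripts marked them both as connective tissue cells and as cells in division. They numbered 418 of 3952 stromal cells and of 21503 cells that passed the filters in the whole series. A passing cell had 200 to 6000 genes and at most 5% of its transcripts from mitochondrial genes. A stromal cell had at least 1% of its unique molecular identifiers (UMIs, the count of captured transcript molecules) from Col1a1, Col1a2, Col3a1, Dcn and Lum and had 0 UMIs of the macrophage gene C1qa. A stromal cell with at least 1 UMI each of Mki67 and Top2a was a cycling cell, and the 3157 stromal cells with 0 UMIs of both genes were the comparison cells, called 0-UMI cells here. The remaining 377 stromal cells had UMIs of 1 gene of the pair.

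The samples came from a mouse model of heterotopic ossification, in which a plug of Matrigel, a basement membrane gel, is placed under the skin and is invaded by host cells. Female CD-1 mice aged 6 to 8 weeks were used in all groups, and the masses were taken on day 5, minced and dissociated with dispase. Matrigel-only mice carried the gel without rhBMP2, a recombinant bone morphogenetic protein that drives cartilage and bone to form outside the skeleton, and were dosed with nothing. Vehicle mice carried gel with rhBMP2 and were given corn oil/DMSO by mouth for 5 days, and Palo mice carried gel with rhBMP2 and were given the retinoid agonist palovarotene at 4 mg/kg for 5 days. Each group was a single droplet library of cells from pooled masses. Matrigel-only differed from Vehicle both in rhBMP2 and in the oral dosing, and the 2 cannot be told apart. With 1 library per group no test between groups was possible, no p-value is given, and every interval is a 95% interval for counting error only.

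In a dividing cell, replication origins are licensed and DNA is copied in S phase, chromosomes are condensed and carried apart on the spindle in G2 and M, and the anaphase-promoting complex (APC/C) then degrades the mitotic regulators. Mki67 encodes a protein of the mitotic chromosome surface that is widely used as a proliferation marker, and Top2a encodes the topoisomerase that untangles replicated chromosomes. Many genes of late division are known to carry a cell cycle genes homology region (CHR) and CCAAT boxes near their start sites, whereas many S phase genes carry sites of E2F factors.

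The starts of some of these genes are shown because they hold the short motifs that recurred among the genes described below. Sequences and start sites are those of RefSeq on mm10 (GRCm38.p6), and each stretch of 60 bases is written 5′ to 3′ on the strand of the gene. Mki67 lies on the minus strand of chr7:135689784-135716361 and Top2a on the minus strand of chr11:98992943-99024189 (mm10, GENCODE vM21). Capitals mark CHR elements (TTTGAA) and CCAAT boxes (CCAAT) on either strand, so that TTCAAA and ATTGG are the same motifs read on the other strand, in the 2 genes of the rule and in 4 genes that were much higher in cycling cells: Cdc20 and Ube2c of the APC/C, the spindle midzone protein gene Prc1 and the spindle protein gene Ckap2l. The stretches are chr7:135716466-135716525 (minus, Mki67), chr11:99024324-99024383 (minus, Top2a), chr4:118437344-118437403 (minus, Cdc20), chr2:164769867-164769926 (plus, Ube2c), chr7:80294409-80294468 (plus, Prc1) and chr2:129297213-129297272 (minus, Ckap2l).
Mki67: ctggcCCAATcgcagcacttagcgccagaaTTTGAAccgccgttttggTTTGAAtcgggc
Top2a: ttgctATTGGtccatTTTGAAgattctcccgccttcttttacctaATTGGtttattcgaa
Cdc20: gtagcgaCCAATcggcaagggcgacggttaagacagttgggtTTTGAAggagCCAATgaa
Ube2c: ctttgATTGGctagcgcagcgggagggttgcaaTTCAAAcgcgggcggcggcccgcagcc
Prc1: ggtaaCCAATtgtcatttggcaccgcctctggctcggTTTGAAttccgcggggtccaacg
Ckap2l: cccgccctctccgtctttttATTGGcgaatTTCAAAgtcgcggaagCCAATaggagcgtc

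For 2 genes of the replicative helicase, capitals mark E2F cores only on either strand, which can overlap one another and then run together. The searched core was TTCCCGC. A second form of it was TTGGCGC. The remaining form was TTCGCGC. The stretches are chr8:75109340-75109399 (plus, Mcm5) and chr1:128359706-128359765 (minus, Mcm6).
Mcm5: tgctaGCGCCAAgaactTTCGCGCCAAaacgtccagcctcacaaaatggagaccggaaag
Mcm6: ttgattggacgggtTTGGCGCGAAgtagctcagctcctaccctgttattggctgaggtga

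Total depth was similar between libraries, with 44252421 UMIs (9249 barcodes) for Matrigel-only, 46317250 (6065 barcodes) for Vehicle and 46901673 (7905 barcodes) for Palo. Matrigel-only held 129 cycling cells among 1767 stromal cells, Vehicle 192 among 1205 and Palo 97 among 980. They were the deeper cells in each library, with medians of 16398 (Matrigel-only), 21317.5 (Vehicle) and 19267 (Palo) UMIs, against 8437, 15592 and 12233 in the 0-UMI cells. Cycling cells likewise showed more genes, with medians of 4524, 4973 and 4768 against 2943, 4071 and 3604. Their share of UMIs from the 5 stromal genes was lower, 5.69%, 4.00% and 6.34% against 7.52%, 5.60% and 9.18%. The libraries shared 19 barcodes between Matrigel-only and Vehicle, 21 between Matrigel-only and Palo and 11 between Vehicle and Palo, and 0 barcodes marked a cycling stromal cell in both libraries of a pair.

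The filters bore on how many cycling cells were counted. The C1qa criterion removed 318, 168 and 204 cells that met the other stromal criteria (Matrigel-only, Vehicle and Palo, the order used throughout), of which 37, 32 and 30 had UMIs of both rule genes. A single C1qa UMI was the reason for 160, 120 and 139 of the removed cells. The limit of 6000 genes removed 8, 74 and 11 cells that met the stromal criteria, of which 7, 48 and 5 had both rule genes, so this limit took proportionally more cycling cells from Vehicle. Scrublet's highest scores, taken at 0.8% per 1000 cells, marked 4, 5 and 3 of the cycling cells as doublets, or 3.10%, 2.60% and 3.09%, against 2.79%, 3.14% and 2.28% of the 0-UMI cells. These cells were kept in the values given here.

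The values that chose the cells were spread widely. A cycling cell had a median of 8, 7 and 7 UMIs of Mki67, with maxima of 23, 31 and 34, and a median of 10, 7 and 8 UMIs of Top2a, with maxima of 38, 42 and 36. Cells at the limit of 1 UMI made up 11.6%, 13.5% and 11.3% of the cycling cells for Mki67 and 9.30%, 17.2% and 20.6% for Top2a. Just inside the rule were the 5, 9 and 9 cells with 1 UMI of each gene, in which the genes of a fixed G2/M list took a median of 0.203%, 0.175% and 0.137% of the UMIs. Just outside were the 67, 112 and 66 stromal cells with a single UMI of either gene, in which that list took 0.0969%, 0.120% and 0.119%.

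The label of the cells was checked against markers that the rule did not use, though all genes come from the cells the rule chose. Tk1, which encodes thymidine kinase, was found in 82.2%, 72.4% and 78.4% of the cycling cells and in 2.14%, 3.63% and 2.78% of the 0-UMI cells. Its level in CPM, the UMIs of a gene scaled to a common total of UMIs summed over the class, was 180 (162 to 199), 100.4 (91.1 to 110.4) and 170 (151 to 190) in cycling cells and 2.76, 3.0 and 2.78 in 0-UMI cells. Stmn1, which encodes the microtubule regulator stathmin, was found in 90.7%, 83.9% and 85.6% of the cycling cells and in 4.42%, 12.7% and 12% of the 0-UMI cells, at 168, 122 and 230 CPM against 6.18, 12.4 and 16 CPM. Both markers of division were therefore far higher in the cycling cells of every library than in the 0-UMI cells of any.

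The cycling cells also carried the stromal markers outside the rule. Prrx1, a homeobox gene of limb and skin mesenchyme, was found in 100%, 98.4% and 100% of them, at 763, 387 and 797 CPM, against 736, 366 and 733 CPM in 0-UMI cells. Pdgfra, the receptor gene that marks many mesenchymal cells, stood at 243, 89.1 and 184 CPM against 256, 92.1 and 212 CPM, and at 1.41, 0 and 0 CPM in cycling macrophages of the same libraries. Thy1, a surface marker of fibroblasts, stood at 665, 91.9 and 618 CPM against 702, 138 and 601 CPM, lower in both classes of Vehicle, and Twist1, a mesenchymal transcription factor gene, at 141, 96.4 and 193 CPM against 156, 83.2 and 208 CPM. Col5a1, a collagen gene outside the rule, was found in all cycling cells of each library, and Col6a1 in 100%, 100% and 99.0% of them. Ptprc, the pan-leukocyte gene, stood at 4.24, 10.3 and 7.39 CPM in cycling stromal cells, at 9.39, 5.31 and 6.89 CPM in 0-UMI cells and at 331, 426 and 328 CPM in cycling macrophages.

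Transcripts of other cell types were detected as well. All 20 of 20 genes of the macrophage list were detected, summing to 843, 523 and 709 CPM in cycling cells against 872, 761 and 757 CPM in 0-UMI cells, and the most abundant was Lyz2 in Matrigel-only and Cd74 in Vehicle and Palo. The T and NK cell list summed to 6.59, 26 and 5.69 CPM with 6, 12 and 5 of its 12 genes detected, against 1.94, 11.9 and 3.50 CPM in 0-UMI cells, higher in the cycling cells of each library. The endothelial list summed to 32.0, 18.1 and 25.6 CPM against 75.7, 17.9 and 49.2 CPM, with 6 of 10 genes detected in each library and the defining genes Cdh5, Emcn and Cldn5 at 0 in all 3. The pericyte and smooth muscle list summed to 53.2, 134.9 and 52.3 CPM against 70.3, 116 and 58.4 CPM, most of it from Cspg4 at 34.8, 95.9 and 34.1 CPM against 7.67, 74.0 and 11.5 CPM in 0-UMI cells, with Higd1b at 0. The myogenic genes Pax7, Myod1, Myf5 and Myog, the Schwann cell genes Sox10, Cdh19 and Foxd3 and the keratinocyte genes Krt5 and Krt14 were at 0 in the cycling cells of every library. The adipocyte list summed to 352, 84.4 and 111.5 CPM against 672, 105 and 274 CPM in 0-UMI cells, most of it from Lpl, with Lep and Cidec at 0. The neutrophil list summed to 24.5, 20.6 and 117.7 CPM against 22.9, 27.1 and 83.1 CPM, with Mmp9 the most abundant at 23.5, 4.93 and 116 CPM and Retnlg and Ly6g at 0. The part of free RNA and of mixed droplets in the values below was not tested.

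The share of stromal cells in cycle was higher in Vehicle than in the other libraries, by a margin that depended on depth. Without correction, Matrigel-only stood at 7.30% (6.13 to 8.61), Vehicle at 15.9% (13.9 to 18.1) and Palo at 9.90% (8.10 to 11.9). Detecting a pair of genes becomes easier as a cell is sequenced more deeply, and stromal cells were deepest in Vehicle, with a median of 16932 UMIs against 8789 in Matrigel-only and 12732 in Palo. With every cell thinned to 2900 UMIs the shares were 4.64% (3.66 to 5.79), 6.84% (5.45 to 8.47) and 5.16% (3.83 to 6.78), and 172, 64 and 46 stromal cells were too shallow to be used. The thinned difference between Vehicle and Matrigel-only was 2.21 percentage points (0.454 to 4.07), against 8.63 points (6.28 to 11.1) without thinning. Its interval included 0 when 2 UMIs of each gene were required, at 0.333 points (-0.822 to 1.6), and when cells were thinned to 1000 UMIs, at 0.396 points (-0.585 to 1.5). Vehicle and Palo differed by 1.68 points (-0.406 to 3.72) and Palo and Matrigel-only by 0.525 points (-1.17 to 2.38), both within counting error at this depth.

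**Figure D1:**
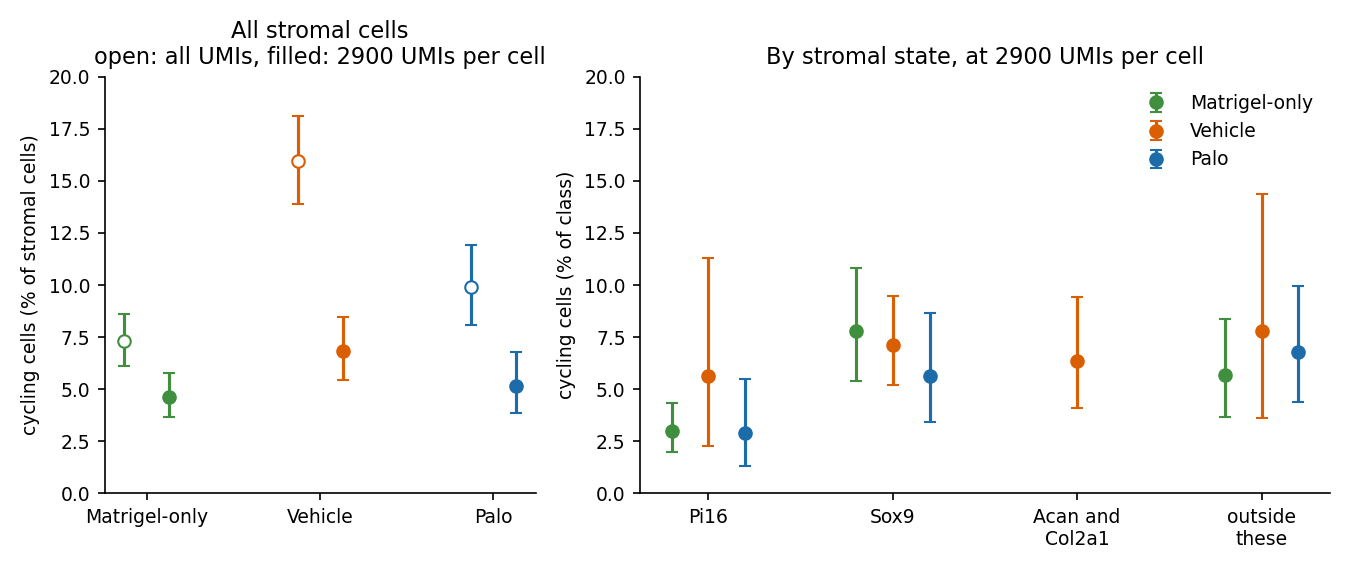
Share of stromal cells with UMIs of both Mki67 and Top2a, in percent, by library (left; open, all UMIs; filled, thinned to 2900 UMIs) and by stromal state at 2900 UMIs (right); bars are exact binomial 95% intervals. The gap between Vehicle and Matrigel-only narrowed from 8.63 to 2.21 percentage points with thinning.

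Background detection was looked at in neutrophils, which do not divide. Both genes were found together in 0 of 2, 0 of 61 and 0 of 11 of them, which for the 61 Vehicle neutrophils allows a share of up to 4.92% by 3 counts of the total and 5.87% by the exact binomial interval, both at their own depth. Their median depth was only 763, 651 and 757 UMIs, and 0 of those 61 reached 2900 UMIs, so they set no limit on background at the depth used for the shares. Macrophages, defined as passing cells with C1qa and under 1% stromal UMIs, showed both genes in 6.56%, 2.14% and 4.21% of cells at 2900 UMIs, with 2313 of 4672, 884 of 2323 and 976 of 4309 cells too shallow to be used. Over all macrophages, without thinning, the shares were 4.37%, 2.20% and 4.50%. On both measures the macrophage share was lowest in Vehicle, the library in which the stromal share was highest.

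Cycling cells were found in every stromal state that marker transcripts defined. In Vehicle, 363 stromal cells held UMIs of both Acan and Col2a1, the aggrecan and type II collagen genes of cartilage, and 53 of these were in cycle, which made up 27.6% of the Vehicle cycling cells. Their thinned share in cycle was 6.36% (4.07 to 9.41), next to 7.14% (5.21 to 9.49) for Vehicle cells with UMIs of Sox9, the chondrogenic transcription factor gene, but not of both cartilage genes. The Matrigel-only and Palo libraries held 0 stromal cells with both cartilage genes. The Sox9 cells of Matrigel-only and Palo were in cycle at 7.78% (5.37 to 10.8) and 5.64% (3.44 to 8.66). Cells with UMIs of Pi16, a marker of an adventitial fibroblast progenitor, were in cycle at 2.99% (1.98 to 4.34), 5.62% (2.28 to 11.3) and 2.89% (1.30 to 5.50). Stromal cells outside these states, which include cells with Acan or Col2a1 alone, were in cycle at 5.67% (3.65 to 8.36), 7.81% (3.61 to 14.4) and 6.79% (4.37 to 9.97). In Matrigel-only the intervals of the Pi16 and Sox9 cells did not overlap, whereas in Vehicle and Palo those of all states overlapped. The Pi16 and Sox9 groups shared 118, 58 and 47 cells, and the states were read at full depth, which favours their detection in deeper cells.

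The cycling cells covered different phases. Genes of the fixed G2/M list took a median of 0.824%, 0.710% and 0.843% of a cycling cell's UMIs and ranged from 0.144% to 1.96%, from 0.0501% to 2.00% and from 0.0450% to 2.66%. In the 0-UMI cells their medians were 0.0705%, 0.0719% and 0.0700%. Genes of the S phase list took 0.245%, 0.192% and 0.192% in cycling cells and 0.0352%, 0.0363% and 0.0378% in 0-UMI cells. The ranges show that single cycling cells reached down to the typical level of the 0-UMI cells in Vehicle and Palo. Thinning to 2900 UMIs gave G2/M medians of 0.862%, 0.638% and 0.793% against 0.0690% in the 0-UMI cells of every library, so the medians stood apart at equal depth too. Among cycling cells the S and G2/M shares ran opposite, with Pearson correlations across cells of -0.64, -0.37 and -0.50, a description in which both shares come from the same UMIs of each cell.

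**Figure D2:**
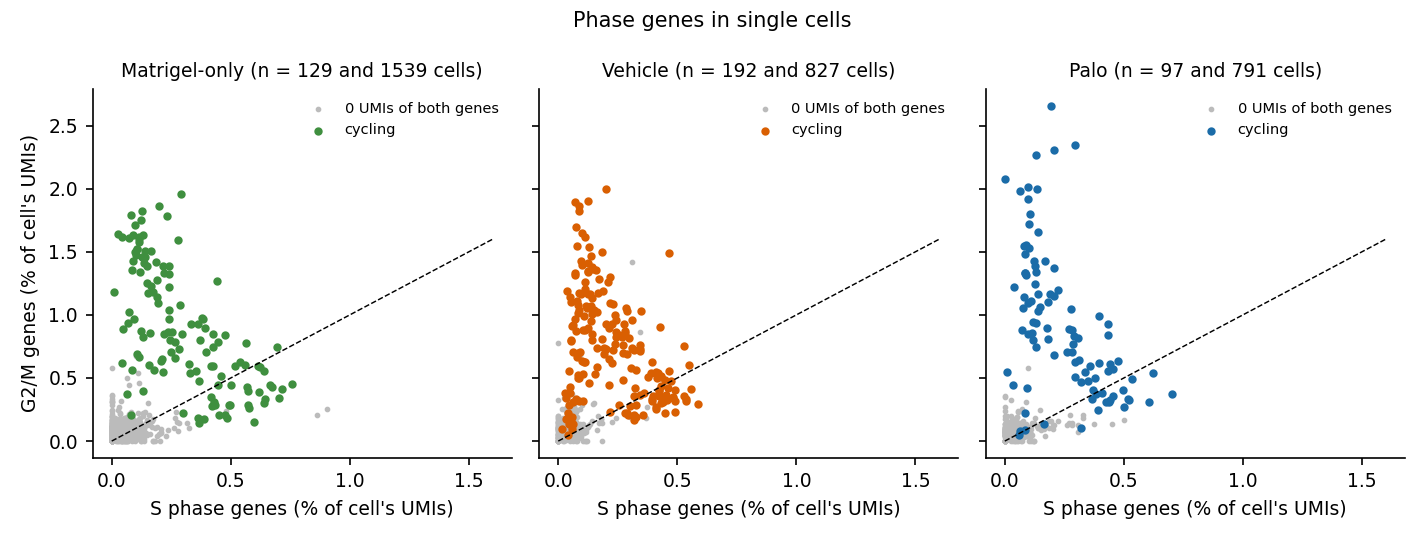
S phase list against G2/M list, each as percent of a cell's UMIs, for cycling (coloured) and 0-UMI (grey) stromal cells in each library; the dashed line marks equal shares. Most cycling cells lie on the G2/M side, and 30, 34 and 19 lie on the S side in Matrigel-only, Vehicle and Palo.

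More S than G2/M transcripts were found in 30, 34 and 19 cycling cells, or 23.3% (16.3 to 31.5), 17.7% (12.6 to 23.9) and 19.6% (12.2 to 28.9). Within 0.1 percentage points of equality lay 12, 35 and 12 cells, so the division is a line through a continuous range. Cells on the S side had a median of 2, 2.5 and 3 UMIs of Mki67 against 9, 8 and 8 on the G2/M side, so cells on the S side sat nearer to the limit of the rule. Of the 0-UMI cells, 3, 6 and 1 reached the lower quartile of the cycling cells' G2/M share, and 48, 33 and 46 that of their S share, or 3.12%, 3.99% and 5.82%. At 2900 UMIs the quartiles were taken anew from the thinned cycling cells, and the S share separated the classes less. Its lower quartile was 0.138%, 0.0690% and 0.103%, and 74, 236 and 111 of the 0-UMI cells, or 5.38%, 30.6% and 14.8%, were at or above it. In Vehicle this quartile equalled the upper quartile of the 0-UMI cells, so ties are counted there. For the G2/M share 2, 7 and 0 of the 0-UMI cells were at or above the quartile. Cells with Mki67 but no Top2a had a median G2/M share of 0.260%, 0.310% and 0.282%, between the classes, whereas cells with Top2a but no Mki67, at 0.0983%, 0.113% and 0.0949%, lay close to the 0-UMI cells in this share. Their median S share was 0.0888%, 0.0486% and 0.0787%, above the 0.0352%, 0.0363% and 0.0378% of the 0-UMI cells. Its upper quartile was 0.293%, 0.111% and 0.159%.

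Genes outside both phase lists differed in part between the S and the G2/M side. Over all genes, 0.458% of 8725 were at least 2-fold higher and 1.03% at least 2-fold lower on the S side in all 3 libraries, and among 145 cell cycle genes outside both lists 8 were higher and 24 lower. These phases were defined by measured values, so the counts are a description. Higher on the S side were the licensing factor gene Cdt1, at 87.6, 71.2 and 77.9 CPM against 12.8, 13.4 and 9.29 CPM, the helicase gene Mcm3, at 156, 186 and 142 CPM against 46.8, 45.7 and 39.3 CPM, and the S phase transcription factor gene E2f1, at 165, 105 and 111 CPM against 44.4, 32.9 and 32.2 CPM, with Msh6, Mcm10, E2f2, Timeless and Ccnd2. Lower on the S side were the mitotic cyclin gene Ccnb1, at 6.26, 3.62 and 0 CPM against 173, 148 and 172 CPM, and the mitotic kinase gene Plk1, at 18.8, 6.04 and 16.7 CPM against 174, 121 and 144 CPM. Of 16 spindle genes outside the phase lists 10 were lower on the S side, with median log2 ratios of -1.61, -1.36 and -1.63. Other genes of replication did not pass 2-fold. Of 16 DNA synthesis genes outside the phase lists 0 passed, with medians of 0.70, 0.85 and 0.80, and of 7 deoxynucleotide supply genes 0 passed, with medians of 0.40, 0.44 and 0.22. Tk1 stood at 142, 103 and 134 CPM against 191, 99.9 and 179 CPM, and Pclaf at 298, 283 and 256 CPM against 355, 285 and 302 CPM. Of 11 genes of the histone list, the chaperone gene Asf1b included, 2, H1f0 and H2afx, were lower on the S side and 0 higher, with medians of -0.71, -0.92 and -0.77.

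The genes that set cycling cells apart from 0-UMI cells were mostly higher in cycling cells, and more of them belonged to the cell cycle lists than not. Of 8724 genes with a mean of at least 10 CPM, 317 (3.63%) were at least 2-fold higher and 21 (0.241%) at least 2-fold lower in cycling cells in all 3 libraries, on the scale of log2(CPM + 5). Of 220 tested genes of the cell cycle lists, 174 were among the higher genes and 0 among the lower, and 143 higher genes lay outside the lists. The S phase list had 34 of 39 genes higher and the G2/M list 48 of 50, with median log2 ratios of 2.32, 2.07 and 1.92 and of 3.93, 3.36 and 3.70, beside 0.06, 0.02 and 0.04 over all genes. A gene could enter these counts through the cycling cells alone. Since the rule chose the cells by 2 such transcripts, these ratios describe the cells and are not tested. Cycling cells were deeper, and with the 0-UMI cells weighted to the same depths 313 genes (3.61% of 8661) were higher and 7 (0.0808%) lower. Among those 7 was Hist1h2bc, a histone gene of the cell cycle lists that was not among the 21. More than 21 genes were lower with another scaling or with a smaller constant added to CPM, as given in the closing section.

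**Figure D3:**
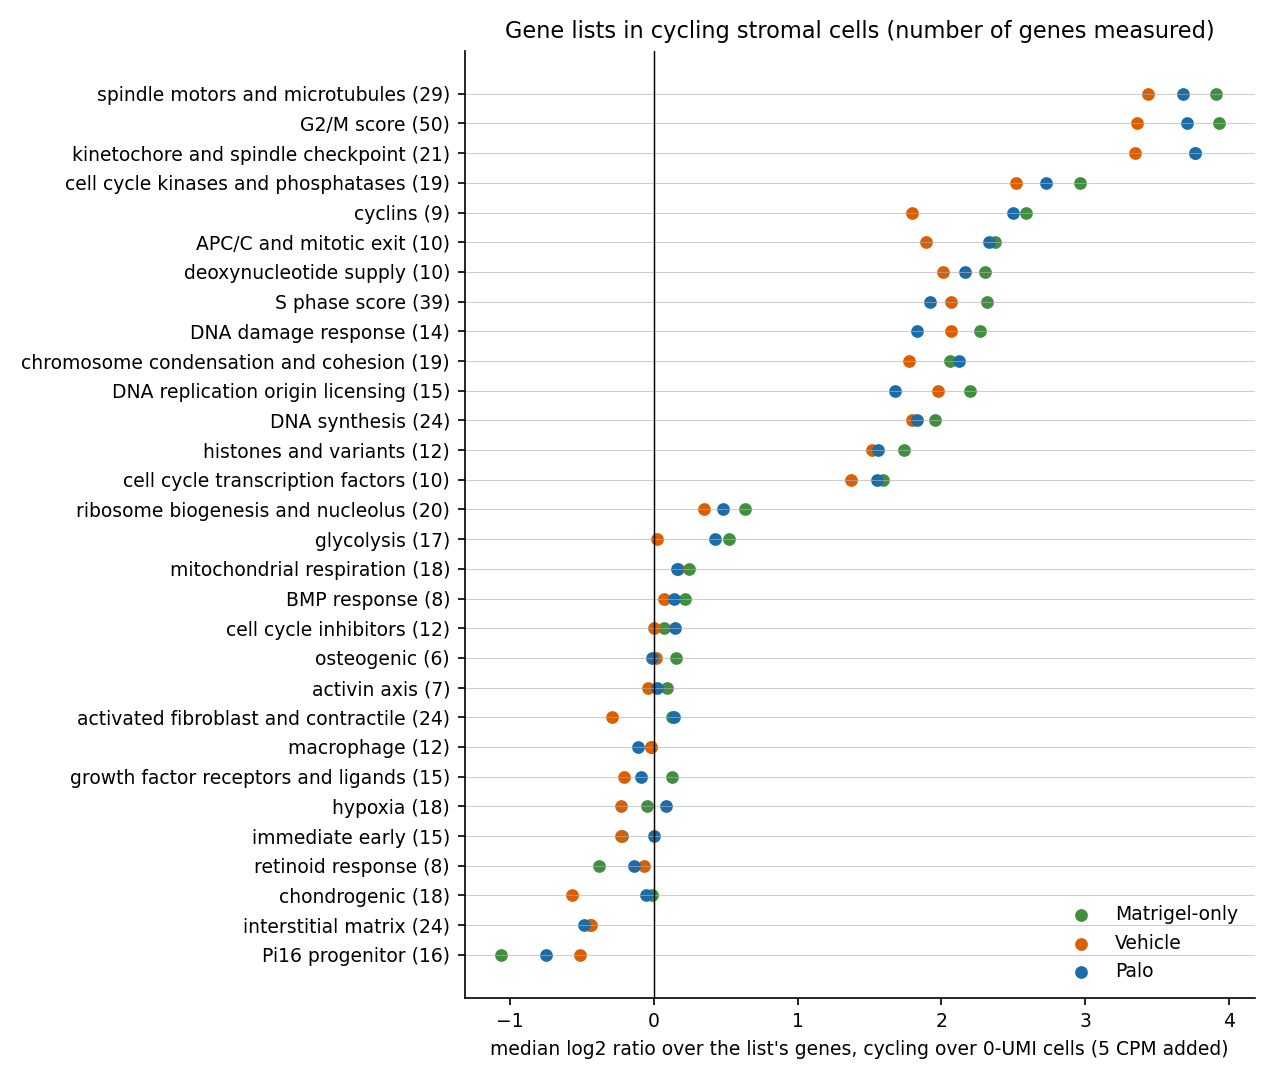
Median log2 ratio of CPM + 5 in cycling over 0-UMI stromal cells for each gene list with at least 5 genes tested, 1 point per library. Cell cycle lists other than the inhibitors lie well above 0, with spindle genes at 3.91, 3.44 and 3.68 in Matrigel-only, Vehicle and Palo, and matrix and Pi16 progenitor genes lie below 0.

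Genes of DNA replication were higher by list. Of 15 origin licensing genes 12 were higher, with median log2 ratios of 2.20, 1.98 and 1.67. Mcm5, whose promoter is shown above, stood at 96.9, 92.0 and 90.4 CPM in cycling cells and at 7.0, 4.62 and 8.23 CPM in 0-UMI cells, and Mcm6 at 157, 130.2 and 133 CPM against 30.4, 29.3 and 41.1 CPM. Of 24 DNA synthesis genes 20 were higher (1.95, 1.79 and 1.83), led by Pclaf, the PCNA clamp-associated factor gene, at 342, 284 and 293 CPM against 4.47, 14.2 and 4.73 CPM. Of 10 deoxynucleotide supply genes 9 were higher (2.30, 2.01 and 2.17), the exception being Cad of pyrimidine synthesis. Of 12 tested genes of the histone list, which also holds the histone mRNA-binding protein gene Slbp and the chaperone genes Nasp and Asf1b, 9 were higher, these 3 included. Among the histones was Hist1h1b at 54.6, 72.2 and 56.9 CPM against 0.149, 0.462 and 0.823 CPM. Most replication-dependent histone transcripts lack a poly(A) tail, so a library primed on poly(A) counts few of them. Of 14 DNA damage response genes 11 were higher, with the checkpoint mediator gene Clspn showing the largest ratio.

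Apart from the G2/M list, the spindle and kinetochore lists showed the largest median ratios. All 29 spindle motor and microtubule genes tested were higher, with medians of 3.91, 3.44 and 3.68, and 20 of 21 kinetochore and checkpoint genes were higher (3.77, 3.35 and 3.77), the exception being Zwint. Cenpf, a gene of the outer kinetochore, stood at 387 (361 to 415), 276 (260.1 to 292) and 342 (315 to 370.2) CPM in cycling cells and at 3.13, 2.62 and 2.26 CPM in 0-UMI cells, a log2 ratio of 5.59, 5.20 and 5.58. Ube2c, the E2 enzyme gene of the APC/C, stood at 528, 359 and 587 CPM against 2.98, 5.16 and 4.01 CPM, and Cdc20, the APC/C activator gene, at 181, 174 and 212 CPM against 2.01, 3.54 and 2.06 CPM. Prc1 stood at 381, 218 and 342 CPM against 2.53, 3.08 and 4.63 CPM. All 4 genes were thus a few CPM or less in 0-UMI cells, and in cycling cells all 4 were lowest in Vehicle. Of 10 APC/C and mitotic exit genes 7 were higher, with medians of 2.37, 1.89 and 2.33. Of 19 chromosome condensation and cohesion genes 15 were higher, with medians of 2.06, 1.77 and 2.12. Among these was the chromatin protein gene Hmgb2 at 539, 740 and 618 CPM against 28.1, 43.7 and 43.6 CPM.

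**Figure D4:**
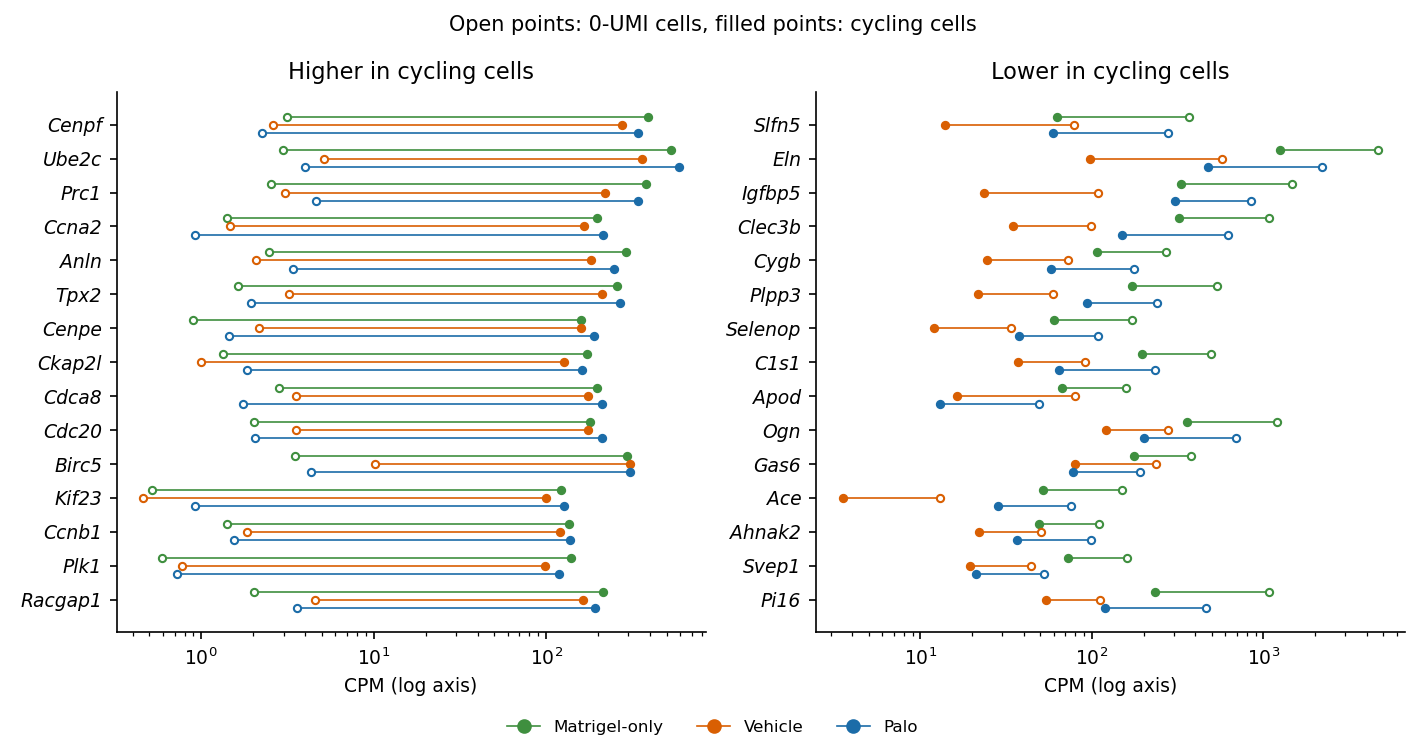
CPM (log axis) in cycling (filled) and 0-UMI (open) stromal cells of each library for the 15 genes with the largest ratio in each direction that recurred in all libraries. The upper genes stand at least 2-fold higher in cycling cells of every library, as with Cenpf at 387, 276 and 342 against 3.13, 2.62 and 2.26 CPM, and the lower genes, led by Slfn5 and Eln, differ less.

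Regulators of the cycle did not all run the same way. Of 9 cyclin genes 5 were higher, among them Ccna2 at 198, 166 and 214 CPM against 1.42, 1.46 and 0.925 CPM, and Ccnb1 at 135, 120 and 137 CPM against 1.42, 1.85 and 1.54 CPM. The E type cyclin gene Ccne1 stood at 27.8, 17.6 and 22.8 CPM against 3.50, 8.0 and 7.92 CPM and fell short of 2-fold in Vehicle. Among the D type cyclins, which link growth signals to the cycle, Ccnd1 had log2 ratios of 1.57, 0.85 and 0.64, Ccnd3 of 0.13, 0.19 and -0.02, and Ccnd2 of -0.81, -0.93 and -0.60, at 99.8, 85.2 and 118 CPM against 178, 167 and 182 CPM. Of 19 kinase and phosphatase genes 15 were higher, with Cdk1, the mitotic kinase gene, at 301, 238 and 281 CPM against 6.56, 11.2 and 8.02 CPM, and Cdk4 short of 2-fold. Of 10 transcription factor genes 7 were higher, with Foxm1, an activator of mitotic genes, at 71.5, 42.7 and 69.9 CPM against 2.38, 1.62 and 1.95 CPM, whereas Myc stood at 39.1, 40.6 and 40.9 CPM against 40.0, 39.6 and 36.8 CPM. Of 12 inhibitor genes 3 were higher, and these were the CDK inhibitor genes Cdkn2c, at 105, 40.8 and 90.4 CPM against 4.84, 4.69 and 6.79 CPM, and Cdkn2d, and the pocket protein gene Rbl1. The p21 gene Cdkn1a stood at 176, 185 and 103 CPM against 168, 256 and 125 CPM, within 2-fold in each library.

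The 10 genes with the largest recurring ratios outside the cell cycle lists were of mixed function. Aspm, a spindle pole gene, stood at 143, 84.0 and 143 CPM against 1.04, 0.924 and 1.54 CPM, and Mxd3, a gene of the MAX network, at 132, 72.0 and 118 CPM. Dek, a chromatin protein gene, stood at 271, 278 and 268 CPM against 56.0, 62.3 and 61.8 CPM, and Ezh2, the histone H3 lysine methyltransferase gene, at 85.2, 79.8 and 75.1 CPM against 17.7, 21.2 and 23.2 CPM. The others were Dnajc9, Arl6ip1, Fam111a, Ccdc34, Nucks1 and Lsm2. Of 20 ribosome biogenesis genes only Ran, which also acts in nuclear transport and spindle assembly, was higher in all 3 libraries, and the list had medians of 0.63, 0.35 and 0.48. Of 17 glycolysis genes 0 passed 2-fold, near the share of 3.63% higher and 0.241% lower over all genes. Their medians of 0.52, 0.02 and 0.43 became 0.08, 0.00 and 0.32 with depth-weighted 0-UMI cells.

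Genes lower in cycling cells included genes of the extracellular matrix and of the Pi16 progenitor list. Eln, the elastin gene, stood at 1247 (1200 to 1295), 98.0 (88.9 to 107.9) and 473 (441 to 506) CPM against 4653, 574 and 2194 CPM, a log2 ratio of -1.90, -2.49 and -2.20. Slfn5, a Schlafen family gene, stood at 62.6, 13.8 and 59.1 CPM against 370, 78.7 and 278 CPM, and the small leucine-rich proteoglycan gene Ogn at 360, 121 and 202 CPM against 1204, 277 and 692 CPM. These 3 were the genes among the 15 named lower ones that kept 2-fold in all libraries with depth-weighted 0-UMI cells, while all 15 kept their direction in each library. The others were Igfbp5, Clec3b, Cygb, Plpp3, Selenop, C1s1, Apod, Gas6, Ace and Ahnak2, with Svep1 and Pi16 just short of 2-fold in Vehicle. Of 16 Pi16 progenitor genes 0 were above their 0-UMI level in any library, the medians were -1.07, -0.51 and -0.75, and Igfbp5 and Clec3b passed 2-fold in all 3. With depth-weighted 0-UMI cells the medians were -0.62, -0.47 and -0.58 and 0 of 15 passed. Of 24 interstitial matrix genes 2, Apod and Ogn, passed 2-fold, and the medians were -0.45, -0.44 and -0.49. With depth-weighted 0-UMI cells 1 of these 24 passed, and the medians were -0.26, -0.34 and -0.39.

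Of 24 chondrogenic genes 18 passed the CPM minimum, most of them through Vehicle, and those at a few CPM or less in both classes of Matrigel-only and Palo could not differ 2-fold there. Sox9 was measurable in every library, at 65.4, 405 and 47.8 CPM against 50.6, 479.9 and 58.0 CPM, and so was the collagen gene Col11a1, at 12.7, 613 and 23.3 CPM against 20.9, 1071 and 77.0 CPM. In Vehicle the median log2 ratio of the 18 genes was -0.57, and Col2a1 stood at 702 CPM in cycling cells against 1907 CPM in 0-UMI cells, whereas Acan stood at 1286 against 1253 CPM. Inhba, which encodes the subunit of activin A, stood at 38.6, 562 and 72.2 CPM against 22.6, 664 and 63.9 CPM. Of 8 BMP response, 8 retinoid, 7 activin axis, 15 growth factor and receptor, 15 immediate early and 18 hypoxia genes, 0 passed 2-fold in all 3 libraries in either direction. Over all genes 3.63% were higher and 0.241% lower, so for lists of this size 0 is near that share. None of 18 mitochondrial respiration and 24 activated fibroblast genes passed either, with medians for the last of 0.13, -0.29 and 0.14. With the 0-UMI cells weighted to the depths of the cycling cells these medians were -0.20, -0.32 and -0.00034, so the direction turned in Matrigel-only and the median in Palo was close to 0. Of 14 osteogenic genes 6 passed the CPM minimum, among them Ibsp through Vehicle alone, so no such count is given for them.

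Promoters of the higher genes differed by set in the motifs they held. In windows from 250 bases before to 50 after the start, CHR elements were in 17.9%, CCAAT boxes in 37.4% and E2F cores in 8.07% of all 32851 RefSeq promoters, and in 11.7%, 37.5% and 15% of those of genes above the CPM minimum. Promoters were matched for 41 of the 48 higher genes of the G2/M list, and of their 43 promoters 31 (72.1%) held a CHR element, 32 (74.4%) a CCAAT box and 8 (18.6%) an E2F core. Of the 26 promoters of 24 matched S phase list genes 5 (19.2%) held a CHR element, 20 (76.9%) a CCAAT box and 17 (65.4%) an E2F core. A CHR element and a CCAAT box stood together in 25 G2/M promoters (58.1%), in 4 S phase promoters (15.4%) and in 6.95% of all promoters. For the higher genes outside the lists, 132 promoters held CHR elements in 34.8%, CCAAT boxes in 59.8% and E2F cores in 35.6%, and for the lower genes 3 of 21 promoters (14.3%) held a CHR element. A match of letters is a description and does not show a bound site.

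In cycling cells 261 genes (3.0% of 8710) were at least 2-fold higher and 508 (5.83%) at least 2-fold lower in Vehicle than in Matrigel-only, and 401 (4.67% of 8587) were higher and 300 (3.49%) lower in Palo than in Vehicle. Between Palo and Matrigel-only 32 (0.370% of 8644) were higher and 85 (0.983%) lower in Palo. Both of these counts were larger with a smaller constant added to CPM, as given in the closing section. Each comparison shares a library with the others. The 0-UMI cells gave 342 higher (4.01%) and 608 lower (7.13%) for Vehicle over Matrigel-only, 406 (4.81%) and 333 (3.94%) for Palo over Vehicle, and 32 (0.377%) and 90 (1.06%) for Palo over Matrigel-only. Of the genes higher in Vehicle than in Matrigel-only 203 were so in both classes, 77.8% of those of cycling cells and 59.4% of those of 0-UMI cells, and 387 were lower in both, 76.2% and 63.7%. For Palo over Vehicle, 283 were higher in both classes, 70.6% of those of cycling cells and 69.7% of those of 0-UMI cells, and 226 lower in both, 75.3% and 67.9%. The overlap was smaller for Palo over Matrigel-only, where 14 were higher in both, 43.8% of each, and 37 lower in both, 43.5% and 41.1%. In every comparison 0 genes passed 2-fold in opposite directions in the 2 classes.

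Cycling cells of Vehicle carried the cartilage genes, as did its 0-UMI cells. The Vehicle 0-UMI cells held Acan at 1253, Col2a1 at 1907, Ibsp at 934 and Fmod at 1700 CPM. Col2a1 was found in 30.7% of the Vehicle cycling cells. The values that follow are those of cycling cells. Acan stood at 0, 1286 and 1.14 CPM, at least 911-fold higher in Vehicle than in Matrigel-only when the latter is set at its floor of 3 UMIs (1.41 CPM), and Col2a1 stood at 0, 702 and 0 CPM, at least 497-fold higher. Ibsp, the bone sialoprotein gene, stood at 0, 506 and 0 CPM and was at least 358-fold higher than in Matrigel-only and at least 297-fold higher than in Palo. Fmod, the fibromodulin gene, stood at 34.4, 1474 and 44.4 CPM, 42.9-fold higher (34.1 to 54.8) in Vehicle than in Matrigel-only. The other large ratios were those of Slpi, Comp, Col9a1, Col11a1, Col9a3 and Col11a2, mostly cartilage matrix genes. Of the 24 chondrogenic genes 18 passed the CPM minimum in the comparisons with Vehicle and 4 between Palo and Matrigel-only, and of 14 osteogenic genes 6 and 3. Members that entered through Vehicle had to be higher there, so no count or median over these lists is given. Among members above the minimum in every library, Sox9 stood at 65.4, 405 and 47.8 CPM and Runx2, the osteoblast transcription factor gene, at 47.5, 83.3 and 61.4 CPM.

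The genes lower in cycling cells of Vehicle than of Matrigel-only included Ccl2 and genes of the Pi16 progenitor list. Ccl2, a monocyte attractant gene, stood at 1020, 74.8 and 864 CPM, 13.6-fold lower (12.1 to 15.4) in Vehicle than in Matrigel-only, against 308, 94.8 and 454 CPM in 0-UMI cells. Nov, a matricellular CCN family gene, stood at 575, 30.3 and 908 CPM, 19.0-fold lower (15.8 to 23.0), and Dlk1, a preadipocyte factor gene, at 105, 1.41 and 115 CPM. The other genes with the largest ratios were Retnla, Thbs4, F2rl1, Eln, Tnxb, Dkk2 and Igfbp5. Members of a list could pass the CPM minimum through Matrigel-only or Palo alone, so no count or median over the lists is given here. Of the Pi16 progenitor list, Clec3b stood at 322, 34.5 and 150 CPM and Pi16 at 234, 53.7 and 120 CPM, whereas the fibronectin gene Fn1 stood at 7842, 8271 and 6254 CPM. Of the immediate early list, Jund stood at 366, 218 and 396 CPM and Klf2 at 80.5, 35.2 and 83.0 CPM. Among the largest ratios of Palo over Vehicle was also Mmp9, a matrix metalloproteinase gene, at 23.5, 4.93 and 116 CPM, which belongs to the neutrophil list as well, with the transcription factor gene Meox1, the interleukin 33 receptor gene Il1rl1, Iqgap2 and F2r.

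**Figure D5:**
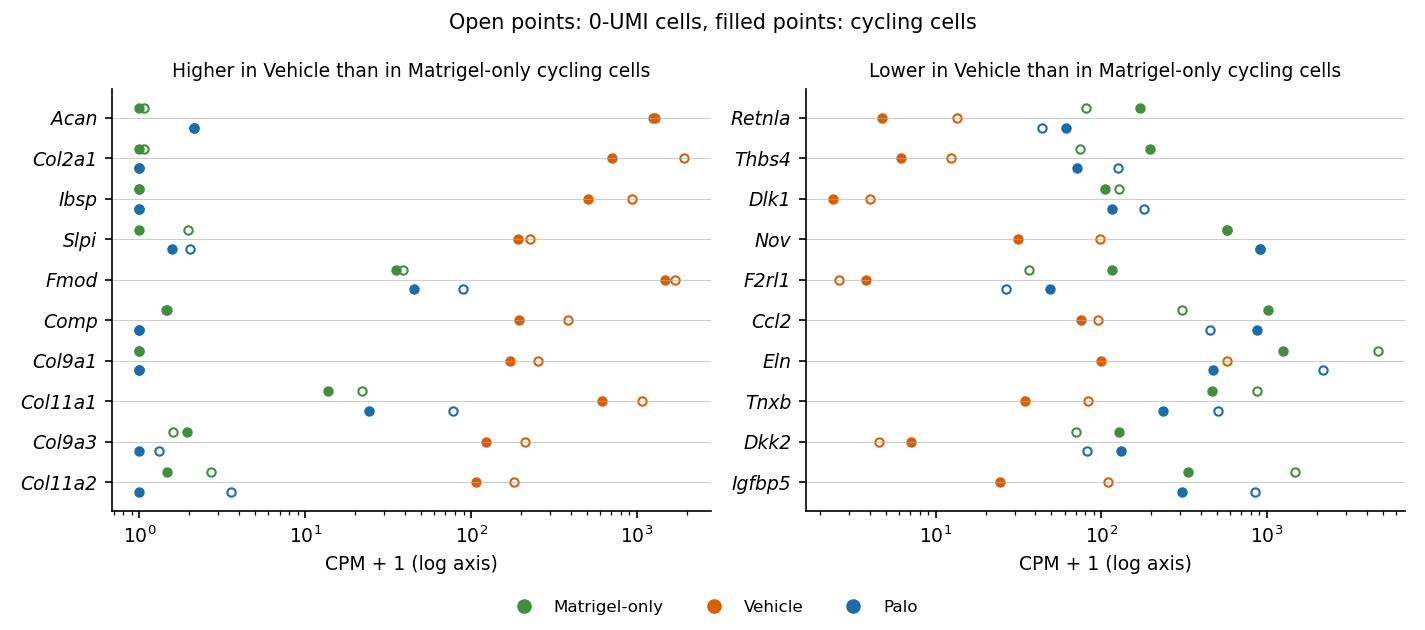
CPM + 1 (log axis) in cycling (filled) and 0-UMI (open) stromal cells of the 3 libraries for the 10 genes with the largest ratio in each direction between Vehicle and Matrigel-only cycling cells. Cartilage genes such as Acan and Col2a1 stand high in Vehicle alone, and Ccl2 and Nov stand low in Vehicle, in both classes of cells.

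Cell cycle transcripts were compared between the cycling cells of the 3 libraries. Of 236 cell cycle genes tested, 2 were at least 2-fold higher and 5 lower in Vehicle than in Matrigel-only, beside 3.0% and 5.83% of all genes, with a median log2 ratio of -0.27 beside -0.05 over all genes. In Palo 4 were higher and 1 lower than in Vehicle, beside 4.67% and 3.49%, with a median of 0.20 beside 0.03. The lists of cell cycle kinases and phosphatases and of spindle motors and microtubules had medians of -0.48 and -0.44 in Vehicle over Matrigel-only and of 0.32 and 0.33 in Palo over Vehicle, and the spindle list summed to 8529, 6224 and 7369 CPM. Stromal cells were deepest in Vehicle, with medians of 8789, 16932 and 12732 UMIs. The rule of 1 UMI could thus admit cells with a lower share of these transcripts there. With 2 UMIs required of each rule gene the median G2/M share of Vehicle rose, as given in the closing section. The part of this in the differences was not tested. Higher in Vehicle than in Matrigel-only were Cdkn2b, a CDK4/6 inhibitor gene, at 7.53, 52.8 and 6.82 CPM, 7.01-fold (4.22 to 12.5), and Cdkn2a, at 5.18, 18.3 and 10.2 CPM, 3.53-fold (1.87 to 7.37). Lower in Vehicle were Ccnd1, 2.90-fold (2.38 to 3.53), Cdkn2c, 2.57-fold (2.10 to 3.15), the growth arrest gene Gas1, at 167, 55.8 and 170 CPM, Btg2 and Cdkn1c. Cdkn2b was lower and Btg2, Cdkn2c, Cdkn1c and Gas1 were higher in Palo than in Vehicle. Genes could pass the CPM minimum through 1 library alone. Cdkn2b and Cdkn2a did so through Vehicle against Matrigel-only, and Cdkn1c through Matrigel-only or Palo against Vehicle. The counts of cell cycle genes are therefore a description. Ccnd1, Cdkn2c, Gas1 and Btg2 were above 10 CPM in the cycling cells of every library. Between Palo and Matrigel-only 1 gene, Cdkn1c, was higher and 0 lower, beside 0.370% and 0.983% of all genes, with a median of -0.08 beside -0.03, so the share of higher genes was near that over all genes. In 0-UMI cells Cdkn2b stood at 7.90, 56.3 and 20.5 CPM, Cdkn2a at 1.12, 14.6 and 5.14 CPM and Gas1 at 247, 51.5 and 216 CPM. Btg2 stood there at 34.1, 11.2 and 32.6 CPM and Cdkn1c at 64.2, 13.9 and 98.9 CPM. Vehicle thus stood apart in these genes outside the cycling cells too. Cdkn2c was at 4.84, 4.69 and 6.79 CPM there, and Ccnd1 at 37.0, 20.6 and 52.8 CPM. Of the genes of the G2/M and S phase lists 0 passed 2-fold in any of the 3 comparisons. Their medians were -0.29 and -0.24 in Vehicle over Matrigel-only and 0.24 and 0.10 in Palo over Vehicle.

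Cycling stromal cells were set beside cycling macrophages of the same libraries. Both classes were chosen by UMIs of Mki67 and Top2a, so likeness in cell cycle genes was in part set by the rule and was not tested. Mki67 itself stood at 484, 382 and 509 CPM in the stromal cells against 865, 680 and 884 CPM in the macrophages. The cycling macrophages were shallower, with medians of 6734, 9196 and 7944.5 UMIs against 16398, 21317.5 and 19267. A single UMI of a rule gene therefore stood for a larger share of a macrophage's UMIs, and these levels were set in part by the rule. The part of depth in the differences between the classes was not tested. Over all 9056 genes tested, 11.6% were at least 2-fold higher and 10.1% at least 2-fold lower in the stromal cells in all 3 libraries, whereas of 244 cell cycle genes 2 were higher and 8 lower, with medians of -0.25, -0.20 and -0.25. The 2 higher genes were Cad, at 73.9, 68.5 and 64.3 CPM against 22.6, 29.8 and 12.3 CPM, and Gas1, at 1.41, 0 and 0 CPM in the macrophages. The 8 lower genes were Btg2, Wdr76, E2f2, Dck, Cdt1, Rb1, Jpt1 and Hist1h3e. Genes could pass the CPM minimum through 1 class alone, as Gas1 did through the stromal cells and Wdr76 and E2f2 through the macrophages. Cycling macrophages had a median G2/M share of 1.17%, 0.703% and 1.12% of UMIs, and they numbered 204, 51 and 194 cells, so the Vehicle value rests on the fewest cells.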

How the data were processed

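The authors deposited UMI counts per barcode and gene, made with Cell Ranger 3.0.2 on mm10 per the submitters' processing notes, which also name Seurat 3. The deposited values are whole-number counts without scaling, and the 31053 genes were used as given. The study's methods describe scaling and log transformation for its own downstream analysis, and those values were not used here. No clustering was run. Counts were summed over the cells of a class in each library and given as CPM. Ratios are of CPM + 5, genes needed a mean of 10 CPM, and a gene counted as higher or lower at 2-fold in all 3 libraries. Shares were thinned by the hypergeometric formula to 2900 UMIs, the lowest 10th percentile of stromal UMIs rounded down to a multiple of 100. Intervals are 95%: exact binomial for shares, exact Poisson for CPM, Newcombe for differences and conditional binomial for folds, with a floor of 3 counts. Doublets were called with Scrublet in scanpy 1.11.5 and kept.

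Python 3.11.15, numpy 2.4.6, scipy 1.17.1, pandas 2.3.3, matplotlib 3.10.9, R 4.3.3 and edgeR 4.0.16 (TMM factors only) were used, and the calculations were tested on simulated data. The cells, lists and tests were chosen with earlier results of these data known. Genes were named by rule: the rule and label markers, the 15 largest ratios in each direction, the 10 largest outside the lists (at least 50 CPM), the 10 largest per direction between conditions, and per list the most abundant, passing, highest and lowest members. Others, such as the D type cyclins, Cdkn1a, Myc and the phase examples, were chosen after their values were seen. The alternative with no upper gene limit was also chosen after seeing the data. Promoter sequences matched 6896 of 8731 genes above the CPM minimum.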

Additional observations from a re-analysis of the deposited data

How the results depend on the processing

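Of 475 alternative values of 51 results, 0 reversed, 401 stayed within 1.5 times or within counting error and 74 moved further. A reversal could be recorded only for single genes past 2-fold in all 3 libraries and for share differences whose main interval excluded 0. The other results could not be recorded as reversed. Not among these results was the activated fibroblast median of Matrigel-only, which turned from 0.13 to -0.20 with depth-weighted 0-UMI cells. No paired analysis was possible because each group was 1 library and the groups share no replicates. Limits on mitochondrial UMIs, macrophage genes and doublets moved no main result beyond its bound. With 2 UMIs required of each rule gene, shares in cycle were 2.27%, 2.61% and 2.28% (Matrigel-only, Vehicle, Palo), 1.62%, 3.92% and 2.41% in Pi16, Sox9 and other Matrigel-only cells, 2.72%, 2.68% and 2.12% in Acan and Col2a1, Sox9 and other Vehicle cells, and 2.59% and 2.49% in Sox9 and other Palo cells, Vehicle exceeded Matrigel-only by 0.333 points, and the Vehicle G2/M median was 0.820%. Without thinning the shares were 7.30%, 15.9% and 9.90%, and by state 4.67%, 12.3% and 9.30%, then 14.6%, 17.5% and 16.1%, then 12.1% and 12.4%, with differences of 8.63, 6.04 and 2.60 points. At 1000 UMIs they were 1.65%, 2.04% and 1.83%, and by state 1.18%, 2.79% and 1.84%, then 2.04%, 2.14% and 1.84% with 1.75% in Vehicle Pi16 cells, then 2.02% and 1.98%, with a difference of 0.396 points. These shares follow from the detection of 2 genes at each depth. Genes lower in cycling cells numbered 7 with depth-weighted 0-UMI cells, 32 with TMM factors, 46 with a pseudocount of 1 CPM and 13 at a minimum of 50 CPM, where higher genes numbered 102. The mean interstitial matrix median was -0.33 weighted and -0.55 with TMM factors, and with a pseudocount of 1 CPM the S phase and G2/M medians were 2.52 and 4.95 and Palo over Matrigel-only gave 66 higher and 149 lower genes. A minimum of 50 CPM tested fewer genes and gave 87 and 213 for Vehicle over Matrigel-only, 181 and 105 for Palo over Vehicle and 10 and 26 for Palo over Matrigel-only. Against macrophages, higher cell cycle genes numbered 1 with a stromal limit of 2%, with no upper gene limit and at 50 CPM, and lower ones 4 with TMM factors and 3 at 50 CPM. Except where fewer genes were tested or the construction shows it, the cause was not tested.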
